A study of Mus musculus with 4 samples.

Results

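The transcripts of 51 genes of transforming growth factor beta (TGF-beta) and bone morphogenetic protein (BMP) signalling were compared between a mouse ovarian cancer cell line and a derivative of it recovered from omental tumors. The 51 genes were taken by name from the 22907 genes named on the array and were grouped by role into 10 ligands, 12 receptors, 7 antagonists, 4 latent TGF-beta binding proteins, 8 Smads, 5 intracellular regulators and 5 target genes. They were read by 74 probes, and 46 of the genes had a probe bright enough to be tested.

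ID8 cells are ovarian surface epithelial cells of C57BL/6 mice that transformed spontaneously in culture, and ID8G cells are ID8 cells that carry a retroviral GFP vector. ID8G cells were injected into the peritoneal cavity of female C57BL/6J mice 7 to 9 weeks old, and after 3 to 4 months the GFP-positive, CD45-negative cells of the omental tumors were sorted and cultured. GO2 cells were obtained by a second round of this selection, so that both lines carry the same vector. The paper gives a serum-containing medium for ID8 cells and names no separate one for GO2 cells. RNA of cultured ID8G and GO2 cells was hybridized to 2 one-color Agilent arrays per line. GO2 is a single selected line. How many mice contributed to it, and whether the arrays of a line came from separate cultures, is not given in the sources used here, so the p-values measure the spread between these arrays, which may be technical. In RNA of a whole culture, fewer cells that express a gene and less of its RNA per cell cannot be told apart.

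TGF-betas and activins bind pairs of type I and type II serine/threonine kinase receptors that phosphorylate Smad2 and Smad3, whereas BMPs act through receptors that phosphorylate Smad1, Smad5 and Smad9. The phosphorylated Smads join Smad4 and enter the nucleus, where the Id genes are direct targets of the BMP branch and many extracellular matrix genes are targets of the TGF-beta branch. The pathway is restrained outside the cell by antagonists that bind the ligands and by latency proteins that hold TGF-beta in the matrix, and inside the cell by Smad6, Smad7, the Smurf ubiquitin ligases and the corepressors Ski and Skil. In the ovary and in ovarian cancer, activins, inhibins and BMPs are well known regulators of surface epithelial and granulosa cells.

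Levels are given as the log2 intensity of a probe minus the 75th percentile of its array, so that 0 marks a probe as bright as that percentile. They compare arrays for 1 probe and not genes with each other. Differences are GO2 minus ID8G on this log2 scale, from limma over the 28368 probes that the scanner software called well above background in ID8G, in GO2 or in both (on 2 arrays of 2), and each gene was read by its brightest tested probe. A gene is called when its Benjamini-Hochberg adjusted p in limma was below 0.05 and its difference reached 2-fold. Between 27502 and 28841 probes were well above background on an array, the arrays of a line correlated with r = 0.997 over the probes tested, and those of different lines with r = 0.967 to 0.968. Of all 28368 probes, 4.50% were called higher in GO2 and 3.34% lower. With scaling to the spike-in controls in place of the 75th percentile, the median difference over all probes was -0.23 and not -0.02, and the share of calls that were higher was 43.5% and not 57.4%. With 2 arrays a line, an exact permutation test of a single gene cannot give a two-sided p below 0.333.

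Of the 46 member genes tested, 11 were called higher in GO2 cells and 1 was called lower. The genes that rose were the ligand Bmp2, the receptors Tgfbr3 and Bmpr1b, the antagonists Grem1, Fst and Fstl1, the latent TGF-beta binding proteins Ltbp1 and Ltbp2, the BMP-branch Smad Smad1, and the BMP targets Id2 and Id3. The pseudoreceptor Bambi fell. Over all 13212 genes tested, 5.98% were called higher and 3.94% lower. A further 15 members had an adjusted p below 0.05 without reaching 2-fold, 8 of them higher and 7 lower. At that threshold alone 27 of 46 members passed, 19 higher and 8 lower, beside 41.0% of all genes tested (21.0% higher and 20.0% lower). This balance turned under spike-in scaling, with 15 members higher and 18 lower, and was 19 and 8 under quantile and median scaling. The median difference of the members was 0.12, and that of all genes tested was -0.0004 with quartiles of -0.20 and 0.21. The levels of the lines did not overlap for 38 of 46 members, beside 78.5% of all genes tested, so this count was close to the background.

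Of the 11 genes called higher, 7 were well above background on all 4 arrays. Bmpr1b, Fst and Ltbp2 were above background on neither ID8G array, and Tgfbr3 was so on 1 of 2, so that these 4 could enter the test only through GO2. The 5 members not tested were the ligands Bmp6 and Bmp7, the activin type I receptor Acvr1b, the BMP-branch Smad Smad9 and the target Id4. None of these was well above background on both arrays of a line. No call among the members survived the Benjamini-Hochberg adjustment of the methods' t-test. At an unadjusted p below 0.05 that test gave 8 members higher and 1 lower by at least 2-fold, and limma gave 11 and 1.

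**Figure D1:**
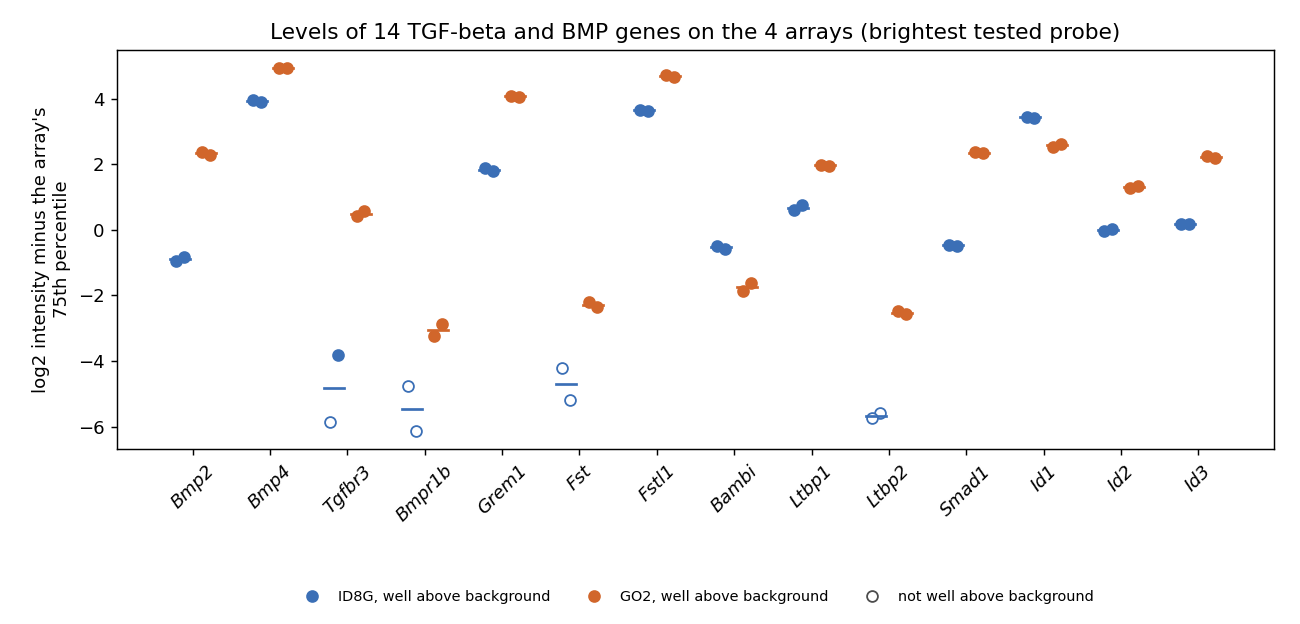
Level of the brightest tested probe of 14 members on each array (vertical axis, log2 scale, relative to the 75th percentile of the array), with ID8G in blue, GO2 in orange, open points for arrays not well above background and bars for the mean of 2 arrays. Both arrays of a line lie close together except where ID8G is near background, Bmp2, Smad1, Grem1 and Id3 are more than 4-fold higher in GO2, and Bambi and Id1 are lower.

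Among the ligands, Bmp2 rose and no ligand was called lower. Bmp2 encodes a BMP that acts through Smad1 and Smad5. Its level was -0.96 and -0.82 in ID8G and 2.38 and 2.28 in GO2. The lines did not overlap, and the difference was 3.22 ± 0.08 (SE, n = 2 per line), or 9.31-fold (limma adjusted p = 0.000242). Bmp4, the closest relative of Bmp2 and a ligand of the same receptors, was at 3.95 and 3.91 in ID8G and at 4.92 and 4.93 in GO2. Its brightest probe missed the 2-fold limit with 1.99-fold (limma adjusted p = 0.000901), while its second probe was called at 2.18-fold (limma adjusted p = 0.0021), with levels of 1.88 and 1.70 in ID8G and 2.93 and 2.90 in GO2. Both probes placed Bmp4 at about the limit, on different sides of it.

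Of the TGF-betas, Tgfb3 differed by 0.65 ± 0.05 and Tgfb2 by 0.58 ± 0.08, both higher in GO2 with limma adjusted p of 0.00233 and 0.0108. Tgfb3 was at 4.04 on both ID8G arrays and at 4.69 on both GO2 arrays. Tgfb1 differed by -0.15, with a 95% interval of -0.30 to -0.01, and did not pass (limma adjusted p = 0.092). The 3 TGF-beta genes therefore differed between the lines by less than 2-fold. The activin subunits were lower in GO2 by small amounts, with differences of -0.36 for Inhba and -0.31 for Inhbb (limma adjusted p of 0.0245 and 0.0208). Inha, the subunit that turns an activin dimer into an inhibin, did not pass, and its difference of -0.29 had an interval of -0.69 to 0.11.

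Among the receptors, the 2 called genes rose from levels at or below the detection limit of ID8G. Tgfbr3 encodes betaglycan, a coreceptor that presents TGF-beta2 and inhibin and also binds BMPs. Its level was -5.85 and -3.81 in ID8G, of which only the second was well above background, and 0.41 and 0.57 in GO2. The difference was 5.32 ± 0.71 (limma adjusted p = 0.00977). The ID8G arrays lay far apart, and the call was lost when dim probes were not filtered (limma adjusted p = 0.0543). Without ID8G replicate 1 the difference was 4.30 and without ID8G replicate 2 it was 6.34.

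Bmpr1b encodes a type I receptor of BMPs and of growth differentiation factors. It was at -4.76 and -6.14 in ID8G, where neither array was well above background, and at -3.23 and -2.88 in GO2. Against the detection limit it was at least 1.54-fold higher in GO2, a bound below 2-fold. It was called on the difference of the measured levels, 2.40 ± 0.50 (limma adjusted p = 0.0284). This call was lost without either GO2 array (limma adjusted p of 0.0851 without GO2 replicate 1 and 0.108 without GO2 replicate 2), with the dim probes kept (0.115), with normexp background correction and with a floor at the detection limit. Of the 11 calls, it was the one lost under the most of the alternatives run.

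The signalling receptors of the TGF-beta branch moved in opposite directions by less than 2-fold. Tgfbr2, the type II receptor, differed by 0.72 ± 0.05 (limma adjusted p = 0.0021), from 2.70 and 2.65 in ID8G to 3.40 and 3.39 in GO2. Tgfbr1, the type I receptor, differed by -0.52 ± 0.07 (limma adjusted p = 0.0103), and its second probe gave -0.44. Acvr2b, a type II receptor of activins, was at 0.43 and 0.58 in ID8G and at -0.45 and -0.51 in GO2. Its difference of -0.99 ± 0.07 fell just short of 2-fold (limma adjusted p = 0.00233), and it reached 2-fold under quantile, median and spike-in scaling.

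The other 6 receptors tested did not pass, and the intervals give how far they could differ. The BMP type II receptor Bmpr2 differed by 0.09 (95% interval -0.13 to 0.31), the BMP type I receptor Bmpr1a by -0.15 (-0.29 to -0.01) and the type I receptor Acvr1 by 0.06 (-0.11 to 0.23). Acvr2a, a type II receptor of activins and BMPs, differed by -0.27 (-0.53 to -0.02). These intervals lie within 2-fold in both directions. Acvrl1, the type I receptor known from endothelial cells, and its coreceptor Eng were dim, at levels between -3.21 and -2.64, and differed by 0.22 and 0.13 with intervals of -0.07 to 0.51 and -0.45 to 0.70.

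The antagonists held 3 called genes that rose and the 1 member that fell. Grem1 encodes gremlin, a secreted protein that binds BMP2 and BMP4. It was at 1.87 and 1.80 in ID8G and at 4.08 and 4.06 in GO2, a difference of 2.23 ± 0.06 or 4.71-fold (limma adjusted p = 0.000251). Fstl1, a secreted follistatin-like glycoprotein, was at 3.66 and 3.63 in ID8G and at 4.72 and 4.66 in GO2. Its difference was 1.05 ± 0.05 by the brightest probe and 1.04 by the second, with limma adjusted p of 0.000877 and 0.0015, and under spike-in scaling it was 0.84 and below 2-fold.

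Fst encodes follistatin, which binds activins. It was at -4.23 and -5.19 in ID8G, with neither array well above background, and at -2.20 and -2.37 in GO2. It was at least 2.63-fold higher in GO2, and the difference of the measured levels was 2.42 ± 0.34 (limma adjusted p = 0.0112). Without GO2 replicate 1 the call was lost on the adjusted p, while the difference of 2.34 stayed above 2-fold. The call was also lost with the dim probes kept (limma adjusted p = 0.0607). Bambi, a transmembrane protein like a type I receptor without the kinase that dampens TGF-beta and BMP signalling, fell. Its level was -0.50 and -0.57 in ID8G and -1.87 and -1.62 in GO2, and the difference was -1.21 ± 0.10, or 2.31-fold lower (limma adjusted p = 0.00318). With normexp background correction it was -0.93 and below 2-fold. Noggin (Nog), chordin (Chrd) and Fstl3, which also bind BMPs or activins, did not pass, with differences of 0.28, 0.06 and -0.51.

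The latent TGF-beta binding proteins tie latent TGF-beta to the matrix, and all 4 had an adjusted p below 0.05. Ltbp1 was at 0.59 and 0.77 in ID8G and at 1.99 and 1.95 in GO2, a difference of 1.29 ± 0.08 (limma adjusted p = 0.0014). Ltbp2, the family member that does not bind latent TGF-beta, was at -5.73 and -5.59 in ID8G, not well above background, and at -2.49 and -2.57 in GO2. It was at least 2.22-fold higher in GO2, and the difference of the measured levels was 3.14 ± 0.07 (limma adjusted p = 0.000234). Ltbp3 and Ltbp4 went in opposite directions and stayed under 2-fold. Ltbp3 differed by -0.62 and Ltbp4 by 0.34, and the second probe of each gave -0.28 and 0.56 with the same sign.

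Smad1 was the called Smad and had the smallest adjusted p of the members. It encodes the BMP-branch Smad, which carries the signal of BMP receptors to the nucleus. Its level was -0.47 and -0.49 in ID8G and 2.37 and 2.33 in GO2, so that the arrays of a line almost coincided. The difference was 2.83 ± 0.05, or 7.11-fold (limma adjusted p = 0.000189). Smad5, which acts in the same branch, was at 3.13 on both ID8G arrays and at 2.97 and 2.99 in GO2, with a difference of -0.15 (95% interval -0.29 to -0.01, limma adjusted p = 0.0842). Smad9, the third Smad of the branch, was not well above background on any array.

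The Smads of the TGF-beta branch and the shared partner did not pass. Smad2 differed by -0.13 (95% interval -0.28 to 0.02) and Smad3 by -0.20 (-0.38 to -0.02), and the shared partner Smad4 by 0.11 (-0.02 to 0.25). The second probes of Smad2 and Smad3 gave -0.07 and -0.16. The 4 probes of Smad4 had differences on both sides of 0, between -0.13 and 0.11, and none passed. Of the inhibitory Smads, Smad6 was higher by 0.27 (limma adjusted p = 0.025), and Smad7 differed by -0.16 with an interval of -0.49 to 0.17.

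None of the 5 intracellular regulators was called. Smurf1, a ubiquitin ligase that targets Smad1 and Smad5, and the corepressor Ski were higher by 0.40 and 0.50 (limma adjusted p of 0.0112 and 0.0139). Skil, the relative of Ski that is induced by TGF-beta, was lower by 0.32 (limma adjusted p = 0.0328), and 2 of its 3 probes passed. Smurf2 and the corepressor Tgif1 did not pass. With spike-in scaling, 23 of the 27 members with an adjusted p below 0.05 still passed, none of the 27 changed sign, and Ltbp4, Smad6, Smurf1 and Ski no longer passed. Under that scaling 10 other members passed, all as lower in GO2, namely Tgfb1, Inha, Acvr2a, Bmpr1a, Fstl3, Smad2, Smad3, Smad5, Smad7 and Smurf2.

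**Figure D2:**
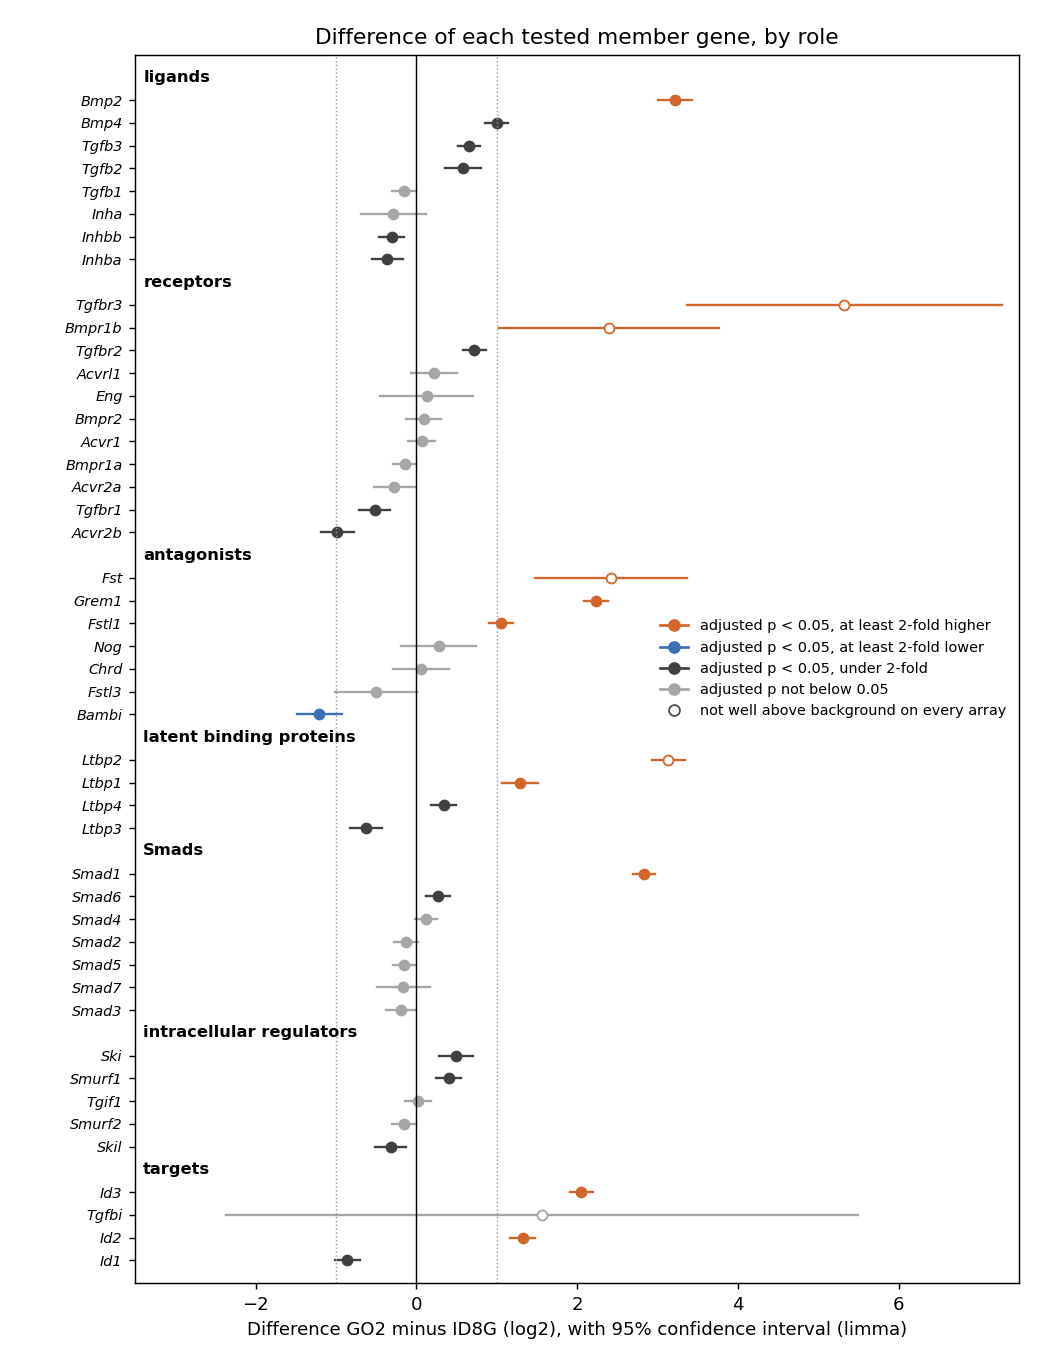
Difference GO2 minus ID8G (horizontal axis, log2) of each of the 46 members tested, grouped by role, with its 95% confidence interval from limma. Colored points reached 2-fold with an adjusted p below 0.05, dark gray points passed without 2-fold, light gray points did not pass, and open points were not well above background on every array. Wide intervals belong to Tgfbr3, Bmpr1b and Fst, whose ID8G levels were near background, and to Tgfbi, whose ID8G arrays disagreed, and the solid orange points of Bmp2, Smad1, Grem1 and Id3 have short intervals above 1.

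The Id genes encode helix-loop-helix proteins without a DNA-binding domain that inhibit differentiation factors, and they are direct targets of Smad1 and Smad5. Id1, Id2 and Id3 differed between the lines, but not in the same direction. Id3 was at 0.18 and 0.17 in ID8G and at 2.25 and 2.20 in GO2, a difference of 2.05 ± 0.05 or 4.14-fold (limma adjusted p = 0.000257). Id2 was at -0.03 and 0.02 in ID8G and at 1.28 and 1.35 in GO2, a difference of 1.32 ± 0.06 or 2.50-fold (limma adjusted p = 0.000607). Id1, a widely used readout of BMP signalling, was lower in GO2, at 3.45 and 3.42 in ID8G and at 2.54 and 2.61 in GO2. Its difference of -0.86 ± 0.06 passed without reaching 2-fold (limma adjusted p = 0.00159), and it reached 2-fold under spike-in scaling. In all 3 genes the arrays of a line lay close together. The lines did not overlap for these 3, as for 78.5% of all genes tested. Id4 was not well above background on any array.

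Tgfbi, an extracellular matrix protein named for its induction by TGF-beta, could not be placed. Its level was -5.84 and -1.74 in ID8G, of which only the second was well above background, and -2.14 and -2.32 in GO2. The GO2 arrays lay between the ID8G arrays, and the difference of 1.56 ± 1.43 did not pass (limma adjusted p = 0.439). It was 3.61 and called without ID8G replicate 2, and -0.49 without ID8G replicate 1.

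The promoters of members were searched because Smad complexes bind short motifs there, and those of 4 of the called members are shown. Shown for Id2, Id3, Smad1 and Grem1 are the 250 bases before and the 20 bases from the transcription start, 5′ to 3′ on the strand of the gene, from the RefSeq promoter table for GRCm38.p6. Capitals mark GGCGCC, the BMP-type Smad motif, which reads the same on both strands, and CAGAC or its reverse complement GTCTG, which hold the Smad3 and Smad4 core.
Id2, chr12:25096073-25096342, minus strand: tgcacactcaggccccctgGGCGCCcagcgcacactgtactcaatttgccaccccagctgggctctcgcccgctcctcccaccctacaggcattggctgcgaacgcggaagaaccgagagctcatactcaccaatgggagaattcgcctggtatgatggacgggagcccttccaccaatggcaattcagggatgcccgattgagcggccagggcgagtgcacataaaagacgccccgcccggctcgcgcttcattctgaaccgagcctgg
Id3, chr4:136143572-136143841, plus strand: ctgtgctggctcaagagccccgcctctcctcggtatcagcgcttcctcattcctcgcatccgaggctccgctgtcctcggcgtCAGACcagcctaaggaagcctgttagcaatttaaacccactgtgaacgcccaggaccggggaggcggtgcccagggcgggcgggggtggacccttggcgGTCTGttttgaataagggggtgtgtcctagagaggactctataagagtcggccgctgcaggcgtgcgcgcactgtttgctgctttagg
Grem1, chr2:113758629-113758898, minus strand: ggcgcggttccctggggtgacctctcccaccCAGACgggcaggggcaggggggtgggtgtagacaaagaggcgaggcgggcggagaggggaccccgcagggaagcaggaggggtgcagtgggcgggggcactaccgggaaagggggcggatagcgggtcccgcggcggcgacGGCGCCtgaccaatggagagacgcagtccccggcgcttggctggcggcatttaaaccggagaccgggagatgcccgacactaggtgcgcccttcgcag
Smad1, chr8:79399409-79399678, minus strand: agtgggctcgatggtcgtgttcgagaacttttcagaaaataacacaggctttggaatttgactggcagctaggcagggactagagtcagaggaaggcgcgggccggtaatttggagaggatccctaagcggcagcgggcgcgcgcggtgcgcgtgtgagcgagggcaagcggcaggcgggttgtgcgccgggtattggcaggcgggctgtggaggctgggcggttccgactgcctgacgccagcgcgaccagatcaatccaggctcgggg
Counted from the start, GGCGCC began at -231 in Id2 and at -78 in Grem1, and CAGAC or GTCTG began at -167 and -68 in Id3 and at -219 in Grem1. The Smad1 window held neither motif. Of the 32851 promoters in the table, 10.4% held GGCGCC and 45.4% held CAGAC or GTCTG. Of 50 promoters of 38 members in the table that were searched, 14 (28%) held GGCGCC and 25 (50%) held CAGAC or GTCTG. Some members had more than 1 window, and the same GGCGCC was counted in overlapping windows of Ltbp4. Of the called members in the table, Id2 and Grem1 held GGCGCC, and its other matches were in members not called. CAGAC or GTCTG was found in at least 1 window of the called Id3, Grem1, Bmpr1b, Ltbp1 and Ltbp2, and also in members not called. The called Fstl1, like Smad1, held neither motif. The palindrome GTCTAGAC, which holds neither of the shorter motifs and is the optimal site of Smad3 and Smad4 in vitro, was in 0.183% of all promoters and, among these 50, in 1 promoter, that of Smad6. These matches are letters in a window, and binding was not measured here.

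Of the member genes, 16 had more than 1 tested probe. The calls of the probes differed in 2 of them, Bmp4 and Skil, and the signs differed in 3, Acvr1, Smad4 and Tgif1, for which no probe passed. In the other genes the probes agreed in sign and in call. Bmp2, Smad1, Grem1, Bambi, Ltbp1, Tgfbr3, Bmpr1b, Fst, Ltbp2, Id1, Id2 and Id3 were each read by 1 tested probe, so their differences have no second probe to set beside them.

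**Figure D3:**
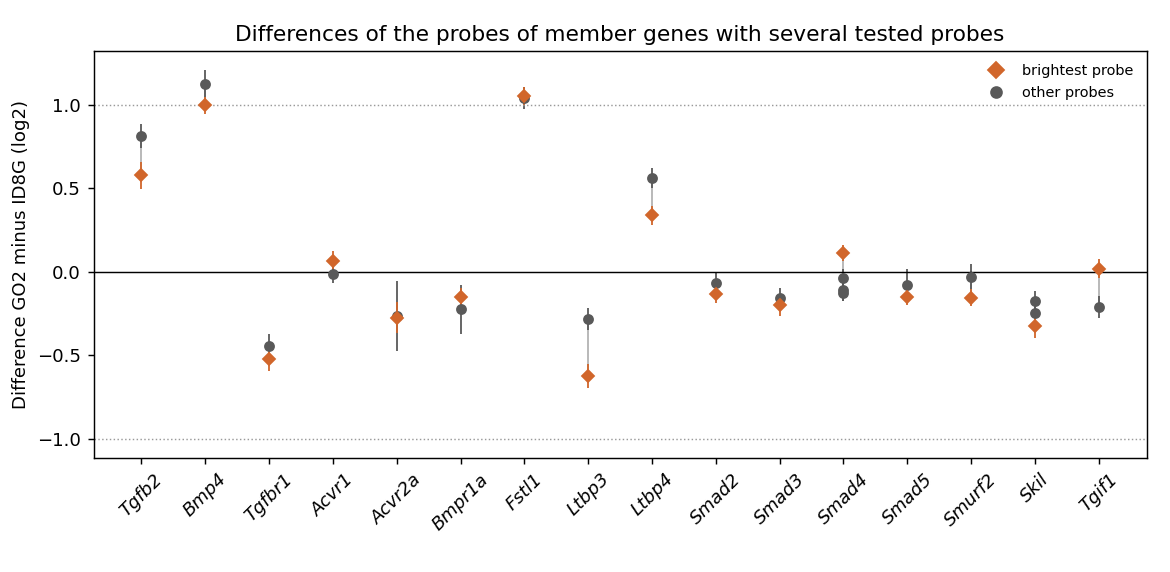
Differences GO2 minus ID8G (vertical axis, log2, with SE) of every tested probe of the 16 members that had several, with the brightest probe as a diamond and the others as circles. The probes of Ltbp3 lie farthest apart (-0.62 and -0.28), the Bmp4 probes straddle the 2-fold line, and the probes of Acvr1, Smad4 and Tgif1 fall on both sides of 0.

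A list of 76 other genes of these pathways was read in the same way, of which 48 were tested. GO2 cells were called higher for 6 of them and lower for 3, with a median difference of 0.05, beside 5.98% and 3.94% of all genes tested. The extracellular regulators held 4 of the 6. Fbn1 encodes the microfibril protein fibrillin-1, to which latent TGF-beta complexes attach. It was at -4.42 and -4.34 in ID8G, not well above background, and at 1.56 and 1.49 in GO2. It was at least 36.7-fold higher, and the difference of the measured levels was 5.90 ± 0.06 (limma adjusted p = 0.000182). The BMP antagonist Nbl1 rose by 2.15 ± 0.07, and Thbs1, encoding thrombospondin-1, which can activate latent TGF-beta, rose by 2.07 ± 0.05. Dand5, an antagonist of Nodal, was the other gene called higher. The chordin-like BMP antagonist Chrdl2 fell by 1.58 and was the only one of these extracellular regulators called lower.

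Among the other ligands and receptors, Lefty1, a Nodal antagonist of the TGF-beta family, rose 2.15-fold, and under spike-in scaling its log2 difference was 0.89. The stress-induced ligand Gdf15 fell by 1.28. Amhr2, the type II receptor of anti-Müllerian hormone and a marker of ovarian surface and granulosa cells, fell by 1.09, from 4.24 and 4.11 to 3.09 and 3.08, and 1 of its 2 other probes was also called. Of the 18 intracellular regulators tested, Ldlrad4, a membrane inhibitor of Smad2 and Smad3 activation, was called with 1.13 ± 0.18, a call that was lost without ID8G replicate 2 (0.87) and, with limma adjusted p of 0.0677 and 0.0671, without GO2 replicate 1 or 2. The probes of Amhr2, Bmp1, Map3k7, Nrp1, Rgma, Tgif2 and Wwp1 differed in whether they passed or were called, and those of Ppm1a, Tdgf1 and Usp15, none of which passed, differed in sign. The widest such gap was in Rgma, a BMP coreceptor, whose brightest probe differed by -0.14 and did not pass, while its second probe, not well above background in ID8G, was called at least 13.5-fold higher.

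A list of 36 textbook target genes of both branches was read as well. Of 31 tested, 17 were called higher and 2 lower, with a median difference of 1.13, beside 5.98% and 3.94% of all genes tested. Of 20 TGF-beta targets tested, 11 were called higher and 1 lower, with a median of 1.29. Of 12 BMP targets, 6 were higher and 1 lower, with a median of 0.95. Of these 12, 4 were not well above background on any ID8G array and could enter the test only through GO2. They were Msx1, Dlx5 and Zfp423, all called higher, and Dlx2, which was not called. Zfp423 was at least 1.22-fold higher, a bound below 2-fold. Cnn1, called among the 20 TGF-beta targets, also entered only through GO2. Cdkn1a is in both lists, and Thbs1, Ldlrad4, Pmepa1 and Itgav are also among the 76 pathway genes. The lists were written with results for these arrays known and are a description, not an independent measure of pathway activity.

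Among the target genes, each read by its brightest probe, the collagens held the largest differences. Col1a2 was at -2.93 and -3.35 in ID8G and at 4.35 and 4.34 in GO2, a difference of 7.49 ± 0.15 (limma adjusted p = 0.000207). Col1a1 rose by 4.69 ± 0.05 and Col3a1 by 4.20 ± 0.09. These fibrillar collagens are also high in fibroblasts, whose markers Pdgfra and Pdgfrb rose as well, Pdgfra by 3.70 ± 0.08 and Pdgfrb at least 2.42-fold from below background in ID8G. Dcn was lower by 0.63 (limma adjusted p = 0.00309), and Dpt, Lum, Thy1, Pi16 and Ly6a were not well above background on any array and were not tested. The summed linear level of all 8 markers, relative to the 75th percentile, was 64.9 to 67.6 in ID8G and 44.0 to 44.4 in GO2. This sum was carried almost wholly by Dcn. The median difference of the 3 tested markers was 3.47. The part of fibroblasts in the collagen differences was not tested.

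Of the BMP targets, the homeobox genes Msx1 and Dlx5 were not well above background in ID8G and at least 6.41-fold and 3.46-fold higher in GO2, and the transcription factor Atoh8 rose by 2.13 ± 0.06. Hey1, a transcriptional repressor also induced by Notch, fell by 1.07 ± 0.16, a call that was lost with normexp (-0.55), with dim probes kept (limma adjusted p = 0.0714) and without GO2 replicate 1 (-0.85). Of the 31 target genes tested, 5 were not well above background in 1 of the lines. The probes of Acta2, Cdkn1a, Runx2 and Tpm1 gave different calls or signs. For Acta2, smooth muscle actin, the brightest probe differed by 0.30 without reaching 2-fold, while the other 2 probes were called higher, by 5.64 ± 0.15 and, from below background in ID8G, at least 2.62-fold.

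**Figure D4:**
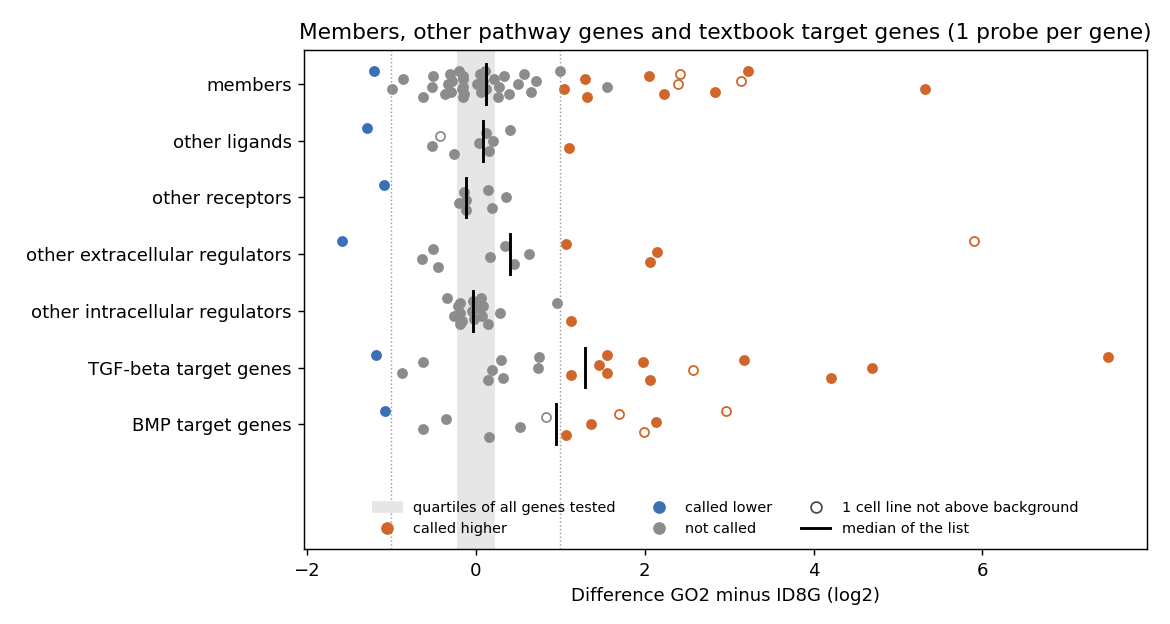
Differences GO2 minus ID8G (horizontal axis, log2) of the members, of the other pathway genes in 4 roles and of the textbook TGF-beta and BMP targets, 1 point per tested gene, with the median of each list as a black bar and the quartiles of all genes tested as a gray band. The medians of the members and of the other ligands, receptors and intracellular regulators lie inside the band, and those of the other extracellular regulators (0.40), the TGF-beta targets (1.29) and the BMP targets (0.95) lie to the right of it.

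The labelled cell type was checked by its markers. Of 12 markers of ovarian surface epithelium and mesothelium, 11 were tested and all 11, among them Wt1, Msln, Krt8 and Krt18, were well above background on all 4 arrays. Krt19 was called lower in GO2 (-1.65) and Upk3b higher (1.08), and the median difference of the 11 was -0.10. The summed linear level of all 12 was 683 to 690 in ID8G and 405 to 410 in GO2, a sum carried by the bright keratin probes Krt18, Krt19 and Krt8. Of 10 leukocyte markers the defining Ptprc, Adgre1, Lyz2 and C1qa were not well above background on any array. The brightest probes of Itgam, Csf1r, Cd14 and Cd3e were well above background on every array, and none was called. Cd14 was lower by 0.69 without reaching 2-fold (limma adjusted p = 0.0021). A second probe of Itgam was well above background on neither ID8G array and on 1 GO2 array. The summed level of all 10 was 24.2 to 26.9 in ID8G and 23.7 to 23.9 in GO2, a sum carried largely by the bright Itgam probe. Pecam1 was the tested endothelial marker of 6 and did not pass, and of 6 smooth muscle and pericyte markers and 5 adipocyte markers 2 each were tested, with Kcnj8 and Fabp4 called lower. The part of the lower keratin levels in the member differences was not tested.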

How the data were processed

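RNA of ID8G and GO2 cells was measured on 4 one-color Agilent arrays on 1 slide, 2 per line. The authors deposited scanner files of Feature Extraction 11.5.1.1 that give a linear intensity per spot, already corrected for background and unscaled across arrays. The authors further deposited a table of log2 values scaled to the 75th percentile and centered per probe, used here for 1 alternative only. Of the per-sample columns, 0 were left unused. The intensities were taken to log2, the 75th percentile over the probes that are not controls (627 to 675 per array) was subtracted, outlier spots were left out and the spots of a probe were averaged. The number of arrays limits the precision.

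Genes were named through the RefSeq accession of the probe in a table for GRCm38.p6, which matched 32989 of 56605 probes (58.3%). Lines were compared by limma 3.58.1 (R 4.3.3) without covariates. In data simulated for 28344 probes with the spread between these arrays, 170 of 200 changed probes were recovered (85%), and 2 unchanged probes were called. All changes put in were larger than 2-fold, and smaller ones were not simulated. Tables and figures were made with pandas 2.3.3 and matplotlib 3.10.9 in python 3.11.15.

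Where 1 line was not well above background on any array, the fold is given as a bound against the higher of the probe's own level and the lowest level well above background on the array. Values on every array are given for members with at least 1 called probe, and up to 3 passing members per role and up to 3 called genes per direction in the other lists are named, as are genes whose probes disagree. Dand5, Id1, Tgfbi, Ltbp3, Ltbp4, Cnn1, Dlx2, Zfp423, the marker genes and the members that did not pass are named because a count or a result turned on them. The values of 1 target gene are not reported here. The members and all lists were chosen with earlier results of these data known. The alternatives were other background correction, scaling, filters, variance model, test, replicate block, threshold, probe averaging and leaving out each array.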

Additional observations from a re-analysis of the deposited data

How the results depend on the processing

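The counts over all probes were 1277 higher and 947 lower. They were 818 and 517 with normexp at an offset of 50, 666 and 606 for probes well above background on all 4 arrays, 0 and 3 with the methods' t-test (1001 and 728 at an unadjusted p below 0.05), 4835 and 5348 with no minimum difference, and 1434 lower with spike-in scaling. Leaving out 1 array gave 1230 to 1311 higher and 934 to 1010 lower. Of the members, 11 were higher and 1 lower. With probes above background on all 4 arrays 7 were higher, with the t-test 0 were higher and 0 lower, and with no minimum difference 19 and 8. The members called lower were 0 with normexp, 2 with quantile normalization, 2 with median centering and 3 with spike-in scaling. Leaving out 1 array gave 10 to 12 members higher and 1 to 2 lower, with Acvr2b gained as lower without ID8G replicate 1 (-1.06) and without GO2 replicate 1 (-1.02).

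Of the other pathway genes, 6 were higher and 3 lower. These were 3 higher with spike-in scaling, 0 and 0 with the t-test, 12 and 9 with no minimum difference, and 5 to 6 and 3 without 1 array. Of the targets, 17 were higher and 2 lower. The t-test gave 0 and 0, normexp gave 1 lower, no filter on dim probes gave 1 lower, no minimum difference gave 5 lower, and leaving out 1 array gave 15 to 17 higher and 1 to 2 lower, with 1 lower without GO2 replicate 1. The cause of these changes was not tested, except that the filter and the threshold change which probes can be called.

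Same-numbered arrays of the lines deviated together with a correlation of 0.0273, which cannot settle whether they were handled together. The sources used here give them only a shared replicate number. A fit with this number as a replicate block gave 1251 probes higher and 936 lower, 10 members higher and 1 lower (Bmpr1b was lost, limma adjusted p = 0.0627), and the counts of the other lists were unchanged at 6 and 3 and at 17 and 2. Of 1046 values of single genes under the alternatives, 986 kept their side of the threshold, 49 lost and 11 gained a call, and 0 called values reversed. Among the 986, 14 changed sign without being called under either setting. The slide could not be used as a block, since there was 1. By the array codes of the scanner, the ID8G arrays lie together on the slide and so do the GO2 arrays. Position and line therefore cannot be told apart. The mean of a gene's probes gives no value for the counts over all probes. Members near the detection limit of ID8G (Bmpr1b, Fst, Ltbp2 and Tgfbr3) are limited by signal over background, and Tgfbi by 1 ID8G array apart from the other.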
